A study of Mus musculus with 32 samples.

Results

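The protease inhibitors described here are 9 genes, chosen by symbol from the 55385 genes of the deposited count table. They are the cystatins Cst3, Cst7 and Cstb, the secretory leukocyte protease inhibitor Slpi, the serpins Serpina3n, Serpinb6a and Serpine2, and the tissue inhibitors of metalloproteinases Timp1 and Timp2. Expression had been measured in microglia sorted after a stab wound of the mouse cortex. All 9 genes were matched, and all 9 passed the filter on low counts. Slpi and Timp1 had under 10 counts in most non-injured libraries and passed through the injured ones, so that counts over the 9 genes below are descriptions of the group and not evidence about it.

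Protease inhibitors bind a protease and block its active site, and each family has its own targets. Cystatins block the cysteine cathepsins of lysosomes and of the extracellular space. Serpins trap serine proteases by changing shape after they are cut, and TIMPs bind the zinc of matrix metalloproteinases. Cystatin C, the product of Cst3, has one of the most abundant transcripts of resting microglia. Cst7 is known as a gene that microglia switch on in neurodegeneration, and Serpina3n and Timp1 are known from reactive astrocytes as well.

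The mice were C57BL/6 adults of 8 to 10 weeks, heterozygous for Cx3cr1CreER. They had received tamoxifen at 180 mg/kg on 5 days in a row before the wound, which turned on EYFP in cells that express Cx3cr1. EYFP+ cells were sorted from the cortex at the wound, called injured here, or from the matching site of the opposite, non-injured hemisphere. All groups, the non-injured ones included, carry the Cre allele, the tamoxifen and a wound somewhere in the brain, and no library comes from an unwounded mouse. Cx3cr1 is also active in monocytes and in macrophages, so the label is not proof of a microglial origin. Groups were male or female cells at day 1, 4, 7 or 14 after the wound on either side, 16 groups in all, each deposited as 2 columns. The labels name no animals.

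The 2 columns of a group differed by little more than counting noise: the median chi-square over genes was 0.475 to 0.639 within groups, where counting noise gives 0.455, and 31.5 to 113 between the sexes of a day and side. They were therefore summed, which gave 16 libraries of 20863982 to 55378788 counts. An injured library and the non-injured one of the same day and sex form a pair, and there were 8 pairs. The p-values measure the spread of the injury effect between the 2 sexes of a day. Microglial markers were present in every library, with 12 markers summing to between 10348 and 71584 CPM (counts scaled to the library sizes that TMM, a trimmed-mean normalization, gives). The sum was lower on the injured side in 7 of 8 pairs. A list of 10 monocyte markers was higher on the injured side in 8 of 8 pairs, with a median sum of 521 CPM (range 195 to 2469) against 82.3 (27.8 to 320). Border macrophage markers were higher in 7 of 8 pairs and neutrophil markers, as a sum, in 5 of 8, whereas neuron and endothelial markers were higher in 0 of 8. The neutrophil sum is mostly Csf3r, with a median of 158 CPM in injured and 293 in non-injured libraries. Without Csf3r, left out after its values were seen, the other 9 neutrophil markers were higher in 8 of 8 pairs, with a median sum of 87.2 CPM (8.44 to 317) against 1.54 (0.0822 to 9.95). No gene of the 9 marker lists was at 0 in all 16 libraries, and the part of these cells in the results below was not tested. The day 4 male non-injured library had 25.7% of its counts from mitochondrial genes, where the other libraries had at most 7.55%. Its neuron markers summed to 3119 CPM and its astrocyte markers to 6317, where the other non-injured libraries had at most 790 and 4499. Its microglial markers summed to 10639 CPM, where those libraries had at least 21239. The day 7 male non-injured library also stood apart, and the results that rest on it are given with and without its pair.

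The start regions of the genes differ in base composition and in the motifs they hold. RefSeq promoter windows on GRCm38.p6, from 250 bases before to 50 after the start, were found for 8 of the 9 genes. Shown are those of Slpi and Timp1, which were near 0 on the non-injured side and higher in the wound, of Cst7, and of Cst3, which fell. Capitals mark matches, on either strand, to the motifs TGANTCA (AP-1), CACGTG (E-box), GGGCGG (GC box) or TTCNNNGAA (STAT), which do not overlap one another here.
Slpi, chr2:164356458-164356757, minus strand: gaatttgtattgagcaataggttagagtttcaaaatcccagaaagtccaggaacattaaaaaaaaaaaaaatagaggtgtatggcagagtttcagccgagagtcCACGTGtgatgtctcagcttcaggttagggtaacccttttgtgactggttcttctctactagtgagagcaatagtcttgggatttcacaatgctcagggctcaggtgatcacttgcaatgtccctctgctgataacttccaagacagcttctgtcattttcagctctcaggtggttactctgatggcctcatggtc
Timp1, chrX:20869916-20870215, plus strand: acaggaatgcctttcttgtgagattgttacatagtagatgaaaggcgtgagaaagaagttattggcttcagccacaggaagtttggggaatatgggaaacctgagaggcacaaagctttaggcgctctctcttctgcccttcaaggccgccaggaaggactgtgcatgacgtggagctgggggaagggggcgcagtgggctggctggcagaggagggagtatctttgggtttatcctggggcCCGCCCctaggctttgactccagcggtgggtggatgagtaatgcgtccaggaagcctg
Cst7, chr2:150570165-150570464, plus strand: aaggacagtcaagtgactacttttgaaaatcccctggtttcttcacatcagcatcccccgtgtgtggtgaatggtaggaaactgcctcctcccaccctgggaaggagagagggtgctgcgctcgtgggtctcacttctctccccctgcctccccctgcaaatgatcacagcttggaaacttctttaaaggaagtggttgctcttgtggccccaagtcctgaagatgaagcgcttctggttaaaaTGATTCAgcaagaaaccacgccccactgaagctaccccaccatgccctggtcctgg
Cst3, chr2:148875463-148875762, minus strand: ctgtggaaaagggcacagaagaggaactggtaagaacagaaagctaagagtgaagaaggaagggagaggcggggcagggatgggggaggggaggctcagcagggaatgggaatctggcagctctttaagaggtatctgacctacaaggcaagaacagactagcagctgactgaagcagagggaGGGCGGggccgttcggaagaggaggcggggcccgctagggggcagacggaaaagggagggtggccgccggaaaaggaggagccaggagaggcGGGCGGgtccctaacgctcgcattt
Slpi holds an E-box 146 bases before its start, a match that 7.15% of 32851 such windows of mouse genes have. Cst7 holds an AP-1 match just before its start, which 7.81% of windows have. Cst3 has 2 GC boxes and Timp1 has 1, and 35.7% of windows have at least 1. Of the other windows, Serpine2 holds 6 GC boxes at 77.7% G and C, while Slpi has 43.3% and no GC box. Serpinb6a has a window with 2 STAT matches, where 8.3% of windows have at least 1, and with 3 GC boxes. None of the 7 motifs searched was found in the Serpina3n window; beside those above, they were those of PU.1, of NF-kB and of the TATA box. The RefSeq starts of Slpi, Serpine2, Cst3 and Timp2, and that of the other Serpinb6a window, lie inside the longer gene models whose coordinates are given below. These matches describe letters and no binding was measured.

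Averaged over the 4 days, 8 of the 9 inhibitors changed at the wound, where 15.7% of the 28597 genes tested did so (edgeR's quasi-likelihood test, Benjamini-Hochberg adjusted p under 0.05). Slpi, Timp1, Serpina3n, Cstb, Cst7, Serpinb6a and Timp2 rose, and Cst3 fell, while 7.76% of all genes rose and 7.96% fell. Serpine2 did not pass the test. None of the 9 had its 8 injured libraries all above the 8 non-injured ones, as 0.231% of genes had, or all below them, as 0.143% had. The median log2 effect was 2.85 over the 9 genes and -0.32 over all genes tested. With every library below 3 counts set to that floor, the mean of the pair ratios gave a median of 2.87. In sorted bulk RNA, a change in the mix of sorted cells and a change of RNA per cell cannot be told apart. With 1 pair left out at a time, 6 to 9 of the genes were called. Cst3, Cst7, Cstb, Slpi, Serpina3n and Serpinb6a were called in each of the 17 other settings tried.

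**Figure D1:**
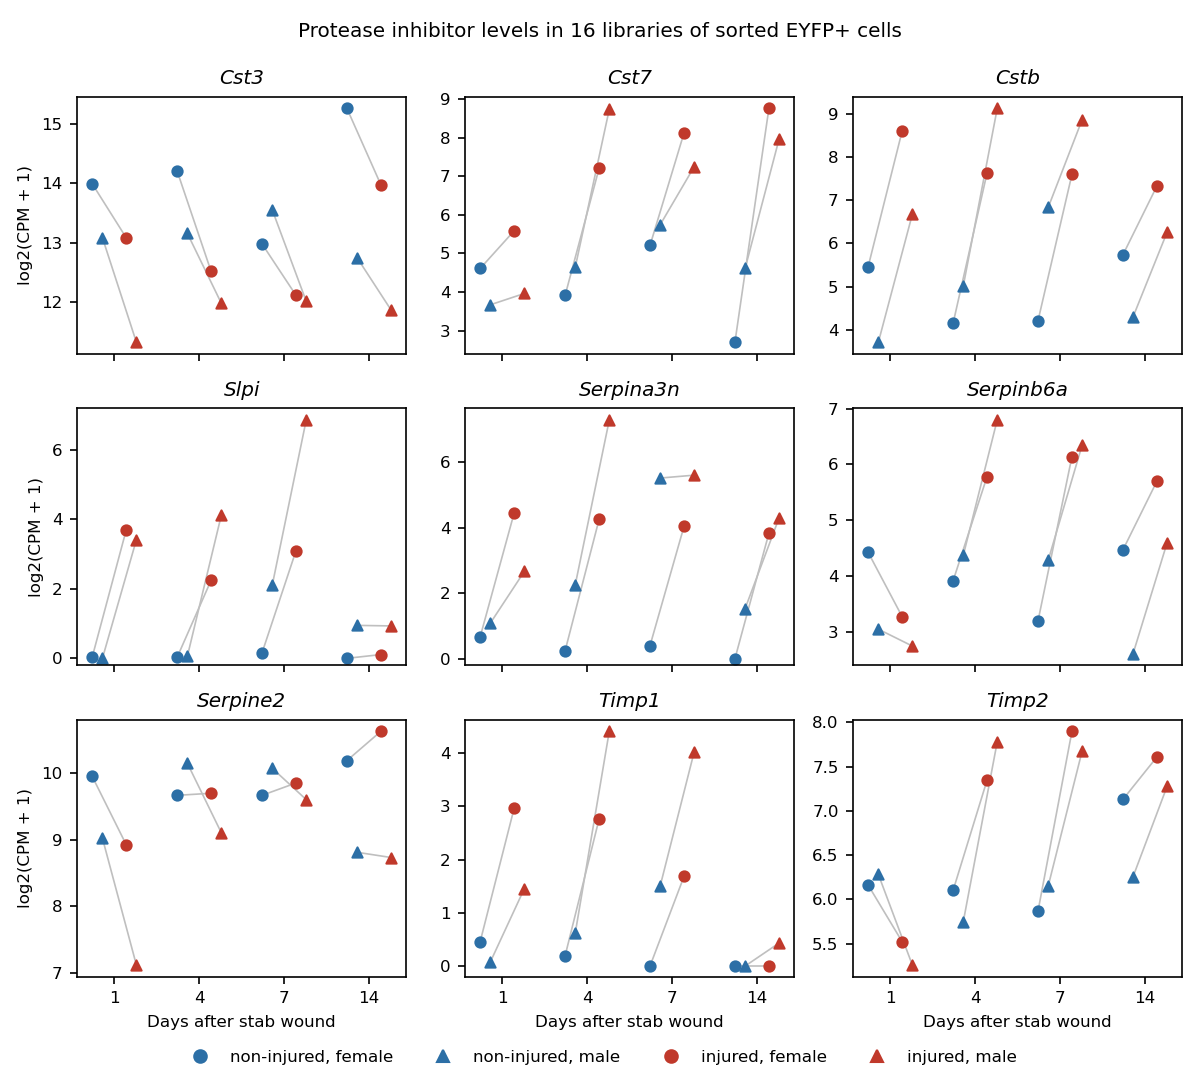
Level of each inhibitor, as log2(CPM + 1), in 16 libraries by day after the wound (circles female, triangles male, blue non-injured, red injured); a grey line joins the 2 libraries of a pair. Cst3 falls in every pair, Cstb and Cst7 rise in every pair, and Slpi and Timp1 lie near 0 in most non-injured libraries.

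Cst3 (ENSMUSG00000027447.6, chr2:148871722-148875692, minus strand) encodes cystatin C, the secreted inhibitor of cysteine cathepsins. Its level ranged from 6876 to 39055 CPM in the 8 non-injured libraries, with a median of 10580, and from 2577 to 16065 in the injured ones, with a median of 4298. Every injured library lay below the non-injured library of its pair, but the sides overlapped. The injured libraries of day 14 females, at 16065 CPM, and of day 1 females, at 8689, lay above the lowest non-injured one. Cst3 fell 2.39-fold, a log2 effect of -1.26 (SE 0.15) with an adjusted p of 0.000868, and 4.06% of all genes were lower in 8 of 8 pairs. By day the log2 effect was -1.33 at day 1, -1.43 at day 4, -1.20 at day 7 and -1.08 at day 14, and only the day 4 value passed (adjusted p 0.0442). The test of a difference between the days gave an unadjusted p of 0.835 for Cst3. Even after the fall, Cst3 was the highest of the 9 per transcript length, at 11074 ± 7459 TPM (SD, n = 8) in injured and 37884 ± 24696 TPM in non-injured libraries. TPM, deposited by the authors, scale transcript abundance for length and library size.

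Cst7 (ENSMUSG00000068129.5, chr2:150570415-150578944, plus strand) encodes cystatin F, which sits in lysosomes and acts on the protease-activating cathepsin C. It ranged from 5.51 to 52.6 CPM in non-injured libraries, median 23.5, and from 14.6 to 431 in injured ones, median 200. The 2 lowest injured libraries were those of day 1, at 14.6 CPM in males and 47.1 in females, and these alone overlapped the non-injured range. Cst7 rose 7.19-fold (log2 2.85, SE 0.34, adjusted p 0.00094) and was higher in 8 of 8 pairs, as were 5.11% of all genes. At day 1 the injured library was 2.01 times the non-injured one in females and 1.24 times in males. At day 4 these ratios were 10.4 and 17.6, and at day 14 they were 78.2 and 10.6. The ratio of 78.2 came from the lowest non-injured library and the highest injured one of the series. The fitted log2 effect was 0.67 at day 1 (SE 0.63), 3.76 at day 4 (SE 0.68, adjusted p 0.0326), 2.23 at day 7 (SE 0.65) and 4.73 at day 14 (SE 0.74, adjusted p 0.0698).

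Cstb (ENSMUSG00000005054.7, chr10:78425669-78427622, plus strand) encodes stefin B, the cystatin of the cytosol that guards against cathepsins leaking from lysosomes. It ranged from 12.1 to 113 CPM in non-injured libraries, median 25, and from 75.4 to 557 in injured ones, median 195. A single non-injured library, that of day 7 males at 113 CPM, lay within the injured range, and the next highest was 52.2. Cstb rose 7.36-fold (log2 2.88, SE 0.22, adjusted p 0.000145) in 8 of 8 pairs. The effect was present from the start, with a log2 value of 3.12 at day 1 (SE 0.43, adjusted p 0.02). It was 3.86 at day 4 (SE 0.45, adjusted p 0.011), 2.73 at day 7 (SE 0.43, adjusted p 0.0471) and 1.81 at day 14 (SE 0.42, adjusted p 0.129). In the pairs, injured cells had 8.98 and 8.37 times the non-injured level at day 1 in females and males, and 3.06 and 4.04 times at day 14.

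The 3 cystatins thus moved in 2 directions. Of the 14 genes in a list of cathepsins and legumain, 9 rose, 1 fell and 4 did not pass, with a median log2 effect of 1.27. Among the 11 of them that are cysteine proteases, the class that cystatins act on, 6 rose, 1 fell and 4 did not pass, with a median of 0.82. Ctsb, a broad lysosomal cysteine protease, rose with a log2 effect of 2.48 (SE 0.19, adjusted p 0.000172), from a mean of 3707 to 20822 CPM. Ctsc, the target of cystatin F, rose by a log2 value of 1.42 (SE 0.16, adjusted p 0.000748), and Ctsl and Ctsz by 1.44 and 1.45. The aspartic proteases Ctsd and Ctse, which cystatins do not inhibit, rose by 1.55 and 4.06. Ctsf fell by 1.11 (SE 0.17, adjusted p 0.00329), whereas Ctss, at 0.59 (adjusted p 0.124), and Lgmn, at 0.35 (adjusted p 0.192), did not pass.

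**Figure D2:**
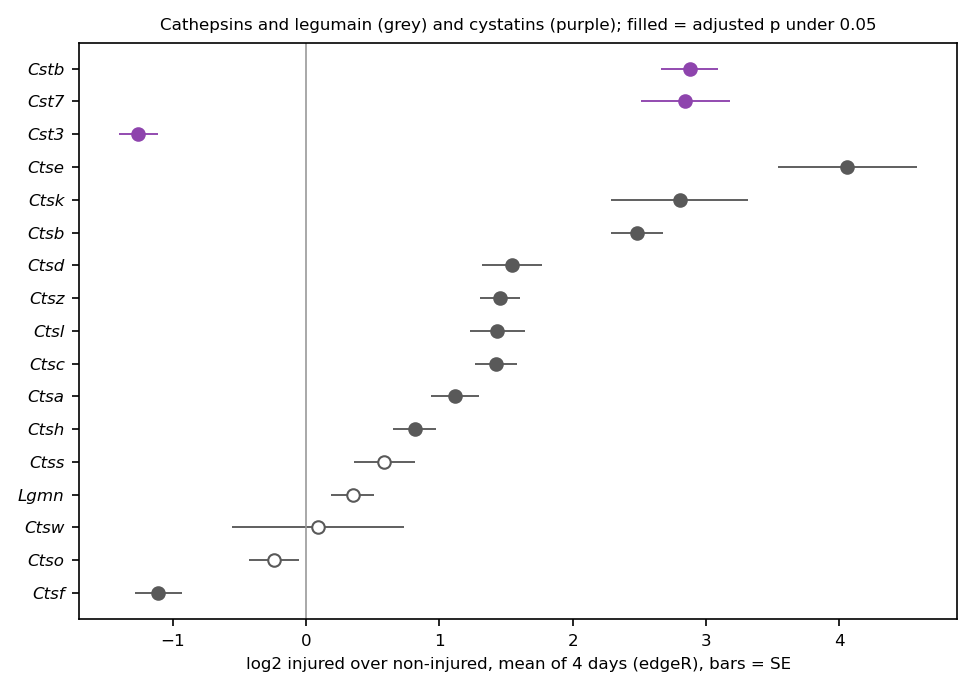
Log2 injury effect averaged over 4 days with its SE (edgeR), for the tested cathepsins and legumain in grey and the 3 cystatins in purple; filled points have an adjusted p under 0.05. Cst3, at -1.26, lies on the opposite side of 0 from Cst7, Cstb and the 9 cathepsins that passed with a rise.

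The amount of cystatin C transcript relative to its targets was compared per library, a measure chosen after the values had been seen and given without a test. The TPM of 11 cysteine proteases (10 cathepsins and Lgmn) were summed. The sum was 3277 TPM in the day 4 male non-injured library and 12094 to 34723 in the other non-injured ones. Non-injured libraries held 82.8 to 381 TPM of Cst3 per 100 TPM of these proteases, with a median of 139. The day 4 male value, at 368, was the second highest. Injured libraries held 14.6 to 96.5, with a median of 32.6, and the value was lower in 8 of 8 pairs. Only the day 14 female injured library, at 96.5, reached the non-injured range, whose lowest value was the day 7 male library at 82.8. Cstb moved the other way, from a median of 0.582 to 2.01 TPM per 100 TPM of protease, and so did Cst7, from 0.209 to 0.663; each was lower in 0 of 8 pairs.

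Slpi (ENSMUSG00000017002.14, chr2:164354070-164389095, minus strand) encodes a small secreted inhibitor of neutrophil elastase and cathepsin G that monocytes and neutrophils also make. It was almost absent from non-injured cells: 5 of the 8 non-injured libraries had fewer than 3 counts, and the median was 0.0328 CPM. The exceptions were the day 7 male library at 3.30 CPM, the day 14 male library at 0.929 and the day 7 female library at 0.116. In injured libraries Slpi was 11.9 and 9.64 CPM at day 1 in females and males, 3.75 and 16.3 at day 4, and 7.56 and 115 at day 7. It was 0.0785 and 0.909 CPM at day 14, so that both day 14 injured libraries lay below every earlier injured one. In raw counts, the day 14 female injured library held 2 counts and the day 7 male injured library 3148. At day 1 the male injured level was at least 114-fold higher than that of its pair, which had 0 counts (against a floor of 3 counts in that library). At day 7 the ratios were 65.0 in females and 34.8 in males, and at day 14 the male ratio was 0.979.

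Averaged over days, Slpi rose with a fitted log2 effect of 5.66 (SE 0.63, adjusted p 0.000884), higher in 7 of 8 pairs. This value depends on how zeros are treated: the mean of the pair ratios with libraries at the floor of 3 counts was 4.78. The fitted effect was 6.76 (adjusted p 0.0359) without the day 14 male pair. Slpi passed at day 1 (adjusted p 0.0175), day 4 (adjusted p 0.0166) and day 7 (log2 5.23, SE 0.63, adjusted p 0.0292). At day 14 its log2 effect was 0.10 (SE 1.10, adjusted p 1). The day 14 effect minus the day 1 effect was -9.17 on the log2 scale with an unadjusted p of 0.00127 and an adjusted p of 0.464, so the difference between days did not pass over all genes. Of the 10 neutrophil markers, 7 rose in the average over days, 0 fell and 3 (Ly6g, Ngp and Csf3r) did not pass. At day 14 none of the 10 passed, and their median log2 effect was 2.88, where that of Slpi was 0.10. S100a8 had a median of 16.2 CPM in injured and 0.628 in non-injured libraries, Mmp8 20.6 and 0.241, and the receptor Cxcr2 2.54 and 0.191. The highest injured values were 40.8 CPM for Retnlg, 45.0 for S100a9 and 26.0 for Cxcr2. Ly6g, which defines neutrophils, was the lowest of the 10, at 0 in 7 of 16 libraries and at most 0.525 CPM. The share of Slpi from such cells was not tested.

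Serpina3n (ENSMUSG00000021091.8, chr12:104406729-104414329, plus strand) encodes a secreted serpin that inhibits elastase and granzyme B. In females it was 0.592 CPM without and 20.8 with injury at day 1, 0.184 and 18.0 at day 4, 0.32 and 15.4 at day 7, and 0 and 13.2 at day 14. In males it was 1.13 and 5.33 at day 1, 3.80 and 154 at day 4, 44.5 and 47.4 at day 7, and 1.89 and 18.6 at day 14. In CPM the injured library was higher in 8 of 8 pairs. In day 7 males this rests on the scaling, since TPM were 34.1 without and 19.6 with injury. The authors' deposited table for males had a log2 fold change of -0.14 at day 7. The sides overlapped through 1 library, the day 7 male non-injured one, which lay above 6 of the 8 injured libraries; without it the highest non-injured value was 3.80 CPM and the lowest injured one 5.33. Serpina3n rose 14.0-fold (log2 3.81, SE 0.59, adjusted p 0.00282), and the log2 effect was 4.77 without the day 7 male pair and 5.77 without the day 14 male pair, whose female counterpart had 0 counts on the non-injured side. At day 4 the log2 effect was 5.65 (SE 1.20, adjusted p 0.0473), and at days 1, 7 and 14 it was 3.69, 1.75 and 4.14 without passing. Its gene lies in a cluster of close relatives. None of the 8 other Serpina3 genes tested passed, and the most abundant of them, Serpina3g, had a mean of 2.22 CPM in injured libraries, but reads shared with these copies cannot be placed with certainty.

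The day 7 male non-injured library was examined further because Slpi, Serpina3n, Timp1, Cstb and Cst7 were all highest in it among non-injured libraries. Its monocyte markers summed to 320 CPM, where the other 7 non-injured libraries had 27.8 to 199. Its astrocyte markers summed to 4499 CPM, within the range of the others (245 to 6317), and Gfap, an astrocyte gene that rises in scars, stood at 412 CPM, where the others had at most 280.5. Lymphocyte markers reached 17.0 CPM against at most 7.13, endothelial and mural markers 660.4 against at most 645, the monocyte receptor Ccr2 15.3 against 12.9 and the astrocyte gene Aldoc 2556 against 2380. Cx3cr1, the gene of the CreER allele, stood at 5.23 CPM, below the 10.7 to 136 of the others. The summed microglial markers, at 28050 CPM, and neutrophil markers, at 168, lay within the range of the others. So did the sums of border macrophage, oligodendrocyte and neuron markers. The part of these markers in the high inhibitor values was not tested. Without this pair the average log2 effects were 5.85 for Slpi (adjusted p 0.0147), 4.77 for Serpina3n (adjusted p 0.00539), 6.12 for Timp1 (adjusted p 0.0188), 3.07 for Cstb (adjusted p 0.00127) and 3.04 for Cst7 (adjusted p 0.00848).

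Serpinb6a (ENSMUSG00000060147.15, chr13:33917918-34002794, minus strand) encodes an intracellular serpin that blocks cathepsin G. It was lower in the injured library at day 1, at 8.69 against 20.5 CPM in females and 5.73 against 7.29 in males. In all 6 later pairs it was higher in the injured library, with ratios from 2.41 (day 14, females) to 8.51 (day 7, females). Over all libraries it ranged from 5.12 to 21.2 CPM without injury, median 16.3, and from 5.73 to 110 with injury, median 52.5. The 2 injured libraries of day 1 alone lay within the non-injured range. Serpinb6a rose 2.67-fold on average (log2 1.42, SE 0.24, adjusted p 0.00418), with log2 effects of -0.81 at day 1, 2.21 at day 4 (adjusted p 0.0488), 2.59 at day 7 (adjusted p 0.0605) and 1.69 at day 14. The day 7 effect exceeded the day 1 effect by 3.40 (unadjusted p 0.000652, adjusted p 0.45). Its exons overlap those of Nqo2 and Ripk1 on the other strand, and the library protocol does not keep the strand, so reads in the shared bases cannot be assigned by strand. It also has close paralogs.

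Serpine2 (ENSMUSG00000026249.10, chr1:79794197-79861180, minus strand) encodes protease nexin-1, which blocks thrombin and the plasminogen activators. It was the second most abundant of the 9 in non-injured cells, at 703 ± 214 TPM (SD, n = 8), and 360 ± 153 TPM in injured ones. In CPM it ranged from 448 to 1160 without injury, median 896, and from 139 to 1571 with injury, median 661. It was lower in the injured library of both day 1 pairs, at 485 against 984 in females and 139 against 519 in males. Its CPM were higher in the injured library of the female pairs of days 4, 7 and 14, by ratios of 1.02, 1.14 and 1.36. In TPM the female pairs of days 4 and 7 went the other way, at 397 against 700 and 448 against 1039. That of day 14 kept its direction, at 648.5 against 578.2 TPM. The average log2 effect was -0.48 (SE 0.19, adjusted p 0.118, 95% interval -0.90 to -0.06). Median-ratio scaling moved the median of all genes by -0.13 and called Serpine2 lower (log2 -0.62, adjusted p 0.0206). DESeq2 (log2 -0.62, adjusted p 0.00371) and limma on log2(TPM + 1) (log2 -1.03, adjusted p 0.00408) also called it lower. The female effect exceeded the male one by 0.78 on the log2 scale (SE 0.33, unadjusted p 0.0379, adjusted p 0.643).

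Timp1 (ENSMUSG00000001131.11, chrX:20870166-20874735, plus strand) encodes the secreted metalloproteinase inhibitor known as a wound and inflammation gene. Of the non-injured libraries 3 had 0 counts, and the rest had 0.0563 to 1.84 CPM, the highest being the day 7 male one. Injured libraries had 6.83 and 1.75 CPM at day 1 in females and males, 5.79 and 20.3 at day 4, and 2.21 and 15.3 at day 7. At day 14 the female injured library had 0 counts and the male one 0.35 CPM, from 10 counts. Timp1 was thus near its floor again on both sides at day 14, as Slpi was in females. The ratios were 40.4 in females and 37.4 in males at day 4, and at day 7 the female level was at least 25.4-fold higher than a library with 0 counts. The fitted average was a log2 effect of 4.68 (SE 1.02, adjusted p 0.0104), higher in 7 of 8 pairs with both libraries at 0 in the other. With values at the floor of 3 counts the mean pair ratio was 3.60 on the log2 scale. At day 4 Timp1 passed (log2 5.25, SE 0.80, adjusted p 0.0166). The average did not pass without the day 1 female pair (log2 4.82, adjusted p 0.0589) or the day 4 male pair (log2 4.67, adjusted p 0.076), where the effect was as large. Without the day 14 male pair it was 3.25 (adjusted p 1). Timp1 lies inside Syn1, a neuronal gene on the other strand, without overlapping its exons. Syn1 was higher on the injured side in 0 of 8 pairs, with medians of 6.27 against 41.6 CPM, the opposite direction to Timp1.

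Timp2 (ENSMUSG00000017466.9, chr11:118301069-118355740, minus strand) encodes a TIMP that also helps the membrane protease MMP14 to activate MMP2. Its levels were even in non-injured libraries, from 52.7 to 76.8 CPM in 7 of them and 139 in the day 14 female one. In injured libraries it was 44.9 and 37.2 CPM at day 1 in females and males, below both non-injured levels. It was 162 and 219 at day 4, 238 and 204 at day 7, and 194 and 154 at day 14, each above the non-injured library of its pair. Timp2 rose 1.79-fold on average (log2 0.84, SE 0.18, adjusted p 0.015), and at single days its log2 effect was -0.85, 1.65, 1.80 and 0.76 without passing (adjusted p 0.318, 0.0638, 0.074 and 0.336). The average did not pass without either day 1 pair or either day 7 pair, at adjusted p values of 0.0563 to 0.1, while the log2 effect stayed at 0.77 to 0.91. In limma on log2(TPM + 1) it was 0.43 (adjusted p 0.243). The day 4 effect exceeded the day 1 effect by 2.50 (unadjusted p 0.000966, adjusted p 0.708).

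**Figure D3:**
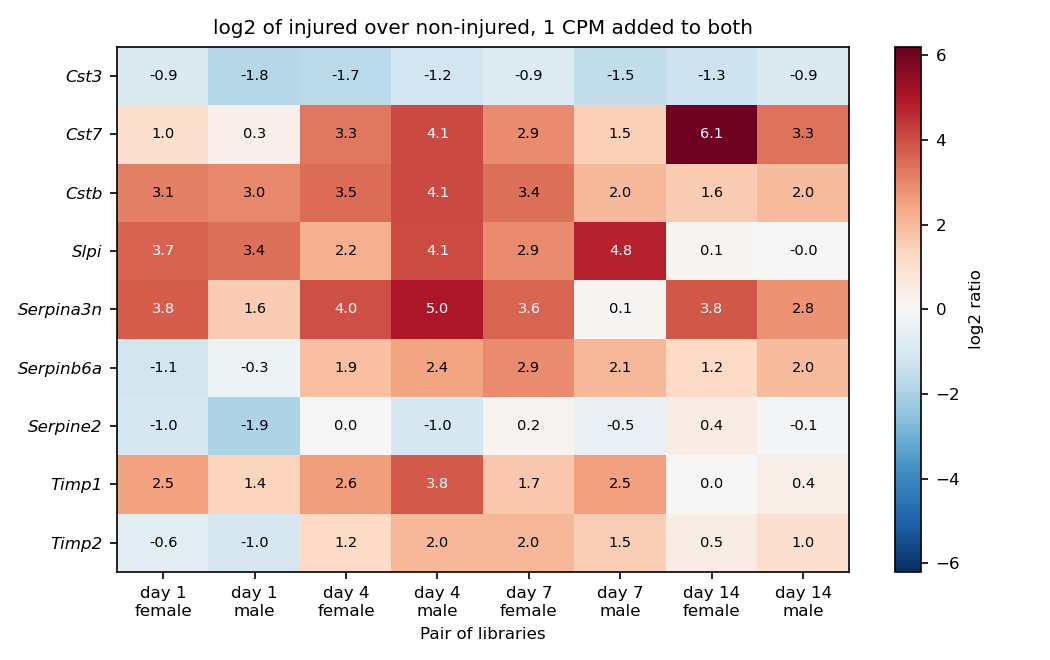
Log2 ratio of injured over non-injured CPM in each of the 8 pairs, with 1 CPM added to both (red higher, blue lower in injured cells). At day 1 Serpinb6a, Serpine2 and Timp2 are below 0 in both sexes, whereas Cstb, Slpi, Serpina3n and Timp1 are above 0.

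Seen by day, only Cstb and Slpi were called at more than 1 day. At day 1, 2 of the 9 rose, Cstb and Slpi, where 1.05% of all genes were called and 0.472% rose. At day 4, 6 rose (Cst7, Cstb, Slpi, Serpina3n, Serpinb6a and Timp1) and Cst3 fell, where 2.04% of all genes were called, 1.52% higher and 0.521% lower. At day 7 Cstb and Slpi rose, with 0.374% of genes called and 0.318% higher, and at day 14 none of the 9 passed, with 0.0594% called. At day 14, 5 of the 9 had an unadjusted p under 0.05, and DESeq2 called 5. These single-day counts rest on few pairs: without the female or the male pair of day 1 no gene of the whole table was called at any single day, and leaving out the day 4 male pair, whose non-injured library stood apart in its markers, left 0 of the 9 called at day 4. Without that pair the day 4 log2 effects of the 7 genes kept their sign, with -1.68 for Cst3 (adjusted p 0.132), 3.57 for Cstb (adjusted p 0.0595) and 7.29 for Slpi (adjusted p 0.24).

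Whether the injury effect differed between days was tested directly. No gene of the 28597 passed (0% called, 1819 at an unadjusted p under 0.05, 225 called by DESeq2), and so 0 of the 9 did. Timp2, Serpinb6a, Slpi, Cst7 and Cstb had an unadjusted p under 0.05, from 0.00241 for Timp2 to 0.0359 for Cstb, and DESeq2 called 4 of the 9. In the injured libraries alone, 0 of the 9 changed over days (0.104% of genes called). Slpi had the lowest unadjusted p, at 0.000416 (adjusted p 0.122). In the non-injured libraries alone, 0 of the 9 changed over days, with 0% of 24622 genes called, 352 at an unadjusted p under 0.05 and 8 called by DESeq2.

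The sexes were compared in the same way, averaged over days. The sex difference of the injury effect passed for 0 genes (0% called, 2094 at an unadjusted p under 0.05, 152 called by DESeq2). Serpina3n had an effect larger in females by 3.83 on the log2 scale (SE 0.86, unadjusted p 0.000766, adjusted p 0.246). DESeq2 called it (adjusted p 0.0214), as did edgeR with its earlier dispersion estimate (adjusted p 0.0346). In limma on log2(TPM + 1) the difference was 0.89 (adjusted p 0.624). It was 2.72 without either day 7 pair (adjusted p 1), the male one of which was high on both sides. For Cst3, Cstb and Timp2 the differences were 0.15 (SE 0.45), 0.13 (SE 0.40) and -0.11 (SE 0.37).

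**Figure D4:**
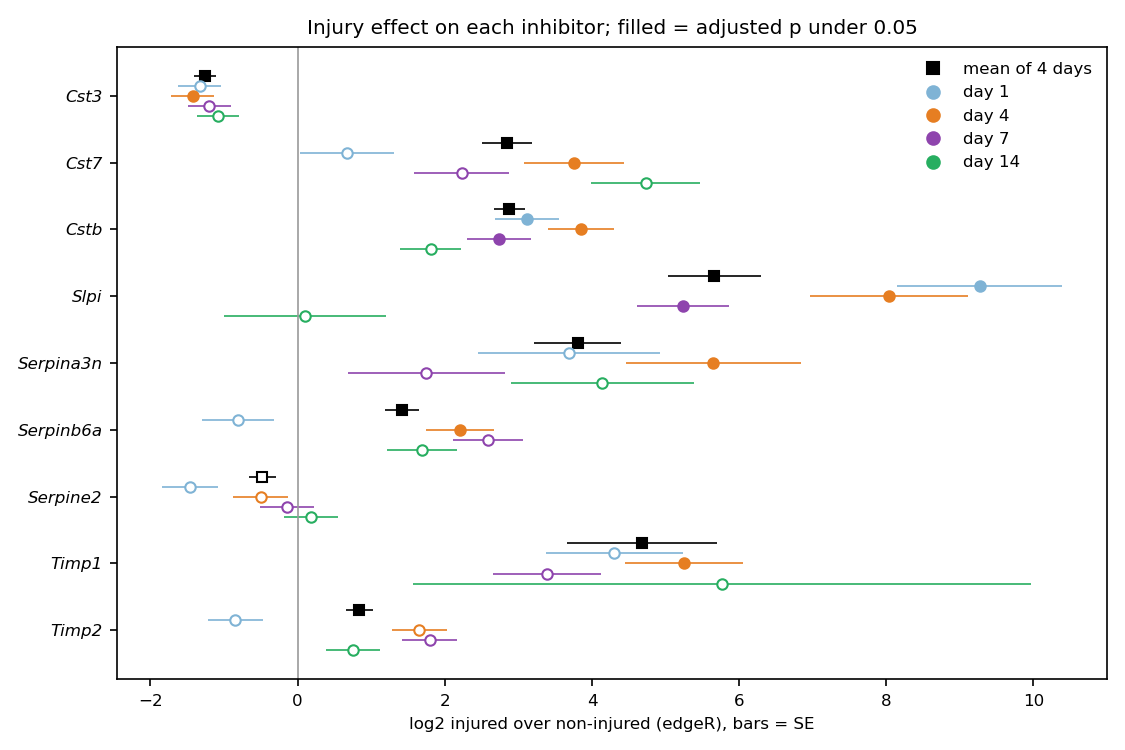
Log2 injury effect of each inhibitor with its SE (edgeR), averaged over days (black squares) and at each day (circles); filled symbols have an adjusted p under 0.05. The averages run from -1.26 for Cst3 to 5.66 for Slpi, and the day 14 value of Timp1 has the widest bar because 3 of its 4 libraries were at 0.

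The authors' deposited table for both sexes, in which the columns were not summed, gave the same signs at day 4 for all 9 genes. In the authors' deposited table Cst7 had a log2 fold change of 0.76 at day 1 (adjusted p 0.366) and 4.36 at day 14 (adjusted p 1.49e-14). Slpi had 9.39 at day 1 and 0.05 at day 14 in the authors' deposited table (adjusted p 1.4e-07 and 1). For Timp2 the authors' deposited table had -0.79 at day 1 (adjusted p 0.000927) and 1.43 at day 4 (adjusted p 1.66e-11).

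Per transcript length, the 9 genes kept a wide order of levels. In non-injured libraries the mean TPM was 37884 for Cst3, 703 for Serpine2, 145 ± 123 for Cstb, 48.7 ± 34.3 for Cst7, 34.5 ± 11.3 for Timp2 and 17.6 ± 6.44 for Serpinb6a (SD, n = 8). Serpina3n (4.96 ± 11.8), Slpi (1.66 ± 3.45) and Timp1 (0.783 ± 1.38) came last, and their ranges over libraries overlapped. So did the ranges of Cstb and Cst7 and those of Cst7 and Timp2, but Cstb lay above Cst7 in each non-injured library. By medians Timp1, at 0.294 TPM, lay above Slpi, at 0.106. In injured libraries Cstb (680 ± 313 TPM) came second and Serpine2 (360 ± 153) after it, followed by Cst7 (273 ± 190), Timp2 (49.8 ± 23.0), Slpi (38.4 ± 61.3), Serpinb6a (37.1 ± 21.2), Serpina3n (17.3 ± 19.4) and Timp1 (9.13 ± 8.76). Cstb, Serpine2 and Cst7 overlapped one another there. In the day 14 injured libraries Serpine2 stayed above Cstb, at 648.5 against 412.3 TPM in females and 401.7 against 303.6 in males. The highest injured Slpi library, at 185 TPM in day 7 males, decides its place, and its median was 19.8 TPM.

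**Figure D5:**
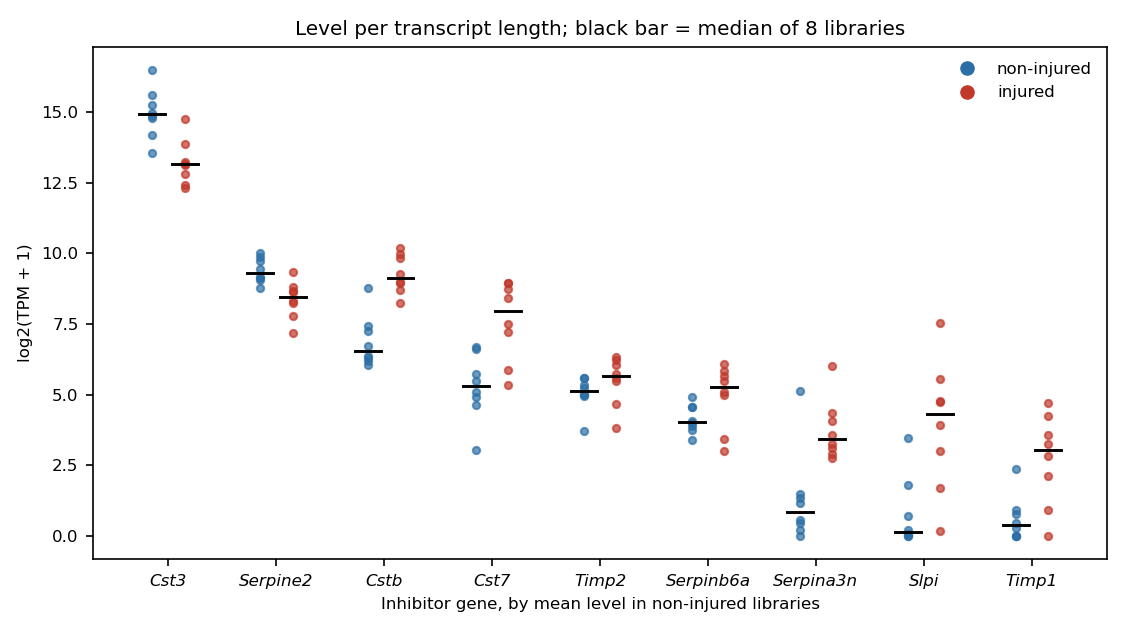
Level per transcript length, as log2(TPM + 1), in 8 non-injured (blue) and 8 injured (red) libraries; black bars are medians. Cst3 is highest on both sides, and the order of the Serpine2 and Cstb medians is exchanged in injured libraries, though not within those of day 14.

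Among the 9 genes, levels across the 16 libraries ran together most closely for Slpi and Timp1 (Pearson r 0.90 of log2(CPM + 1)), Timp2 and Serpinb6a (0.87), Serpina3n and Cstb (0.86) and Timp1 and Cstb (0.86). Cst3 had negative values with 7 of the other 8, down to -0.63 with Slpi, and 0.66 with Serpine2. The libraries share their sides and days, and these r values are descriptions. Of 9022 genes with a mean of at least 10 CPM, those most like each inhibitor across the 16 libraries were found in the same way. For Slpi they were Hp, Clec4e and Arg1 (r 0.91 to 0.95), and for Cstb they were Esd, Cd63 and Ifitm3 (0.97 each). For Serpina3n they were Cd52, Clec4d and Txn1 (0.90 to 0.94), for Timp1 Sem1, Tmsb4x and Ero1l (0.91 to 0.94), and for Serpinb6a Ggh, Sptssa and B2m (0.92 to 0.93). For Cst7 they were Ahnak2, Apoc1 and Rilpl2 (0.92 to 0.93), for Timp2 Igf1, Aph1c and Hacd4 (0.91 to 0.92), for Cst3 Ssbp2, St3gal6 and Tspan13 (0.92 to 0.93), and for Serpine2 Ldhb, Ctso and Thrsp (0.89 to 0.94).

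The relatives of these genes also included genes that moved in both directions. Of 35 other serpins tested, 1 rose, 2 fell and 32 did not pass (median log2 0.14); Serpinf1, the secreted serpin PEDF, fell by 1.49 (SE 0.20, adjusted p 0.00159). Of 9 tested genes from a wider cystatin list, 0 rose and 1 fell. That list also held Hrg, Kng1, Kng2 and Cstad, and not all of its genes are cystatins. Of 7 further inhibitors of metalloproteases, 1 rose and 2 fell: Timp3 by 1.81 (SE 0.34, adjusted p 0.00709) and Timp4 by 2.36 (SE 0.52, adjusted p 0.0118). Timp3 was lower in 8 of 8 pairs and Timp4 in 6 of 8, higher in 2. Their non-injured levels varied widely, from 8.61 to 142 CPM for Timp3 and from 1.105 to 149 for Timp4. On average over days, the 4 TIMPs thus split into 2 that rose and 2 that fell. Of 17 further serine protease and calpain inhibitors, 3 rose and 5 fell. Wfdc17, a relative of Slpi by its WAP domain, rose by a log2 value of 4.29 (SE 0.50, adjusted p 0.000886) from a mean of 45.0 to 417 CPM. Cast, the calpain inhibitor calpastatin, rose by 1.04, and Pcsk1n, an inhibitor of a prohormone convertase, fell by 2.73. Pcsk1n was lower in 8 of 8 pairs, and its non-injured level ranged from 13.3 to 1900 CPM.

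Matrix metalloproteases and ADAMs, among which are the targets of TIMPs, changed in both directions. Of 29 tested, 8 rose and 7 fell (median log2 0.34). The 7 that fell include Adam22 and Adam23, which lack a working protease site. Adam8 rose by a log2 value of 5.89 (SE 0.36, adjusted p 8.8e-05), Mmp12, the macrophage elastase, by 4.95 and Mmp14, the partner of Timp2, by 1.96 (adjusted p 0.00238). Mmp8, which neutrophils store, rose by 5.71, from a mean of 0.937 to 46.5 CPM. Of 29 serine proteases, 5 rose, 1 fell and 23 did not pass; the one that fell was Klk8, by 1.23.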

How the data were processed

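RNA from sorted EYFP+ cells had been converted with SMART-Seq v4 and Nextera XT, a protocol without strand information, per the labels' protocols. Per the submitters' processing notes, Salmon (version 1.0.0) and DESeq2 (version 1.26.0) had been used; a genome build is not given in the sources used here. As values, the authors deposited expected counts per gene (estimated by Salmon and not normalized), TPM values, and normalized counts, a signal that was not used here. Comparisons of the authors were also deposited, each gene with its log2 fold change, the standard error and Wald statistic (here scores), and a p-value with its adjusted form. Symbols came from these tables, and coordinates from GENCODE M21 (GRCm38), whose versioned identifiers matched.

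All 32 count columns were used. The 2 columns of each group were summed and rounded to whole numbers. In R 4.3.3, edgeR 4.0.16 fitted 8 pair means and 4 day effects of injury by quasi-likelihood with TMM factors, after filterByExpr at a minimum count of 10 on groups of day and side. It left 4 residual and 5.32 prior degrees of freedom. P-values were adjusted by Benjamini-Hochberg over all genes tested, and genes were called under 0.05. SE is the effect over the square root of F. Sex differences added 1 coefficient, and each side was also fitted alone over days. CPM use TMM library sizes, a floor is 3 counts in a library, and floors cover counting error only. Alternatives were DESeq2 1.42.0, limma 3.58.1 on log2(TPM + 1), other scaling and filters, the earlier edgeR dispersion estimate (added after seeing the data), 32 separate columns, and leaving out columns or pairs.

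The 9 genes and all gene lists were chosen with earlier results of these data known. Genes named from the lists were up to 5 per list by absolute log2 effect among those called with a mean of at least 10 CPM; A2m and other called genes below that mean are only counted, and Ctsc, Ctsf, Ctss, Lgmn and the Serpina3 relatives were named after their values were seen. Replicate numbers did not pair the columns: deviations from group means correlated between -0.0056 and 0.065 across sides.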

Additional observations from a re-analysis of the deposited data

Results flagged for a closer look

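In each group of 8 non-injured or 8 injured libraries, the gap between an extreme library and its nearest neighbour was compared with the range of the group, for 27 groups of values; chance flags about 1 in 20 groups. Among non-injured libraries, that of day 7 males was far above the others for Slpi, at 2.10 on the log2(CPM + 1) scale, for Serpina3n, at 5.51, and for Timp1, at 1.51. The high monocyte, lymphocyte and Gfap values of this library are given with the results, and their part was not tested. For Timp2 the day 14 female non-injured library was far above the others, at 7.13 on the same scale.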

How the results depend on the processing

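The average over days kept its direction for all 9 genes in 17 other settings. Timp1 passed in 14 of them, Timp2 in 12 and Serpine2 in 8. In limma on TPM the effects were 3.14 for Slpi, 2.46 for Serpina3n, 2.11 for Timp1 and 0.81 for Serpinb6a, and DESeq2 gave 4.41 for Serpina3n. The all-gene count of 4496 became 14503 with 32 columns as separate samples without a replicate block and 12439 with the replicate block, where counting noise serves as the spread. With a column or a pair left out it was 1517 to 4653, and 6 to 9 of the 9 genes were called. Of called genes, 49.35% were higher, and 40.71% were with median-ratio scaling and 24.98% in limma on TPM.

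Single-day counts moved far more. At day 1, 301 genes became 1487 with the earlier dispersion estimate, 538 with median-ratio factors, 101 without a filter, 2463 in DESeq2, 565 in limma, 11341 without and 8197 with the replicate block, and 0 to 771 with a part left out; of the 9, 2 became 4 (earlier dispersion), 6 (DESeq2), 8 and 8 (32 columns without and with the block), and 0 to 4. At day 4, 584 became 1344, 210 (no filter), 1876 (DESeq2), 319 (limma), 10358, 7672 and 0 to 706; of the 9, 7 became 3 without a filter and 0 to 5 with a part left out. At day 7, 107 became 1320, 16, 2136, 179, 14267, 11213 and 0 to 632; of the 9, 2 became 6 (earlier dispersion), 1 (median-ratio), 0 (no filter), 7 (DESeq2), 1 (limma), 9 and 7 (without and with the block), and 0 to 4. At day 14, 17 became 1009, 40 (median-ratio), 2, 2115, 115, 11697, 8501 and 0 to 146; of the 9, 0 became 3, 5 (DESeq2), 1 (limma), 7 and 6 (block), and 0 to 1.

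For the difference between days, 0 genes became 343 (earlier dispersion), 225 (DESeq2), 1 (limma), 14608 and 9167 (without and with the block) and 0 to 1; of the 9, 0 became 4, 4, 8 and 7. For the sex difference, 0 became 87, 152, 8805 and 5196; of the 9, 0 became 1, 1, 3 and 2, and 0 with a part left out. Over days in non-injured libraries, 0 became 27 (no filter), 8 (DESeq2), 3746 (32 columns) and 0 to 47; of the 9, 0 became 4 (32 columns). In injured libraries 23 became 434, 327, 0 (limma), 9022 and 0 to 493; of the 9, 0 became 3 (no filter), 3 (DESeq2), 7 (32 columns) and 0 to 2. The cause of these shifts was not tested.

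Reversed values were small. With a pair left out, Serpine2 ran from -0.915 to 0.0405 at day 4, from -0.478 to 0.23 at day 7 and from -0.0873 to 0.449 at day 14. It was 0.00098 at day 7 without a filter and -0.12 at day 14 in limma. Slpi at day 14 became -0.65 without replicate 1, -0.04 without the female pair and 4.47 without the male pair. Timp1 at day 14 has no value without the male pair, since both other libraries are at 0. No protein sequences were at hand, so the planned comparison of sequence identity was not run. The replicate block was not run for fits of 1 side.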
